A study of Caenorhabditis elegans with 2 samples.

Results

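The nuclear hormone receptor genes examined here are the protein-coding genes of Caenorhabditis elegans whose symbol is nhr followed by a number. There were 268 of them among 19973 protein-coding genes of the Ensembl annotation of WBcel235. In all, 269 genes carried such a symbol, and 1 was not analysed here. A gene was said to hold a peak when a peak summit lay between 1000 bp upstream and 500 bp downstream of its annotated start. Of the 268 genes, 167 lie on chromosome V, 32 on chromosome IV, 23 on chromosome X, 23 on chromosome I, 15 on chromosome II and 8 on chromosome III.

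Chromatin immunoprecipitation with sequencing (ChIP-seq) was done with an anti-GFP antibody on hermaphrodite worms that express COG-1 joined to GFP, in 1 group with 2 biological replicates. COG-1, a transcription factor with a homeodomain of the Nkx6 class, is known for its part in taste neuron, vulva and gonad development. The worms were of strain OP541, which carries the unc-119(tm4063) allele on chromosome III and the insertion wgIs541, and were taken as mid-stage embryos 3 hours after synchronisation by bleaching. Whole animals were used, so a peak does not say which cells held the factor, and the tagged protein came from a transgene. The study's list of reproducible peaks held 1841 regions. The irreproducible discovery rate (IDR) used to make it rates how alike regions rank between replicates, and how it was applied here is not given. A place in the list does not by itself show that both replicates ranked a region alike. Relaxed lists of peaks and background held 22583 regions for the pooled reads, 21617 for replicate 1 and 20247 for replicate 2. Signal values below are the authors' own for each region, and ranks count from the strongest region of a list. RNA was not measured, so none of the values bears on expression.

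Nuclear receptors are transcription factors that bind DNA through zinc fingers and, in many cases, a lipid-like ligand through a second domain. C. elegans has a small set of receptors with clear relatives in insects and vertebrates and a very large set that arose by expansion from an ancestor related to HNF4. Among the conserved receptors, NHR-23 and NHR-25 act in moulting, and NHR-8 in cholesterol and xenobiotic handling. Among the expanded set, NHR-49 controls fatty acid metabolism and the response to fasting.

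An IDR peak was held by 12 receptor genes. These were nhr-1, nhr-32, nhr-48 and nhr-255 on X, nhr-47, nhr-58, nhr-59, nhr-142, nhr-228 and nhr-256 on V, nhr-119 on II, and nhr-49. The reference sequence within 50 bp of the summit is shown for 8 of them, in WBcel235 (ce11) from RefSeq and on the strand of the receptor gene. Capitals mark GCGTCT or its reverse complement. The first 6 sequences hold these letters, nhr-48 is the conserved receptor, and nhr-255 has its summit inside a tRNA gene. They are nhr-1 (chrX:17513656-17513756, plus strand), nhr-59 (chrV:2278664-2278764, minus strand), nhr-58 (chrV:532156-532256, plus strand), nhr-142 (chrV:5791002-5791102, minus strand), nhr-228 (chrV:2281715-2281815, plus strand), nhr-119 (chrII:2800941-2801041, minus strand), nhr-48 (chrX:15707501-15707601, plus strand) and nhr-255 (chrX:15742016-15742116, plus strand).
nhr-1: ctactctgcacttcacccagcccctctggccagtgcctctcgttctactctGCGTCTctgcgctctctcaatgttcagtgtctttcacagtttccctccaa
nhr-59: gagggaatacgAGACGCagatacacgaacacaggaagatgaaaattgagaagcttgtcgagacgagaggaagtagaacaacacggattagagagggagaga
nhr-58: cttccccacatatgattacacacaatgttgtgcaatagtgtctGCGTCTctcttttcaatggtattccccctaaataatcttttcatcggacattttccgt
nhr-142: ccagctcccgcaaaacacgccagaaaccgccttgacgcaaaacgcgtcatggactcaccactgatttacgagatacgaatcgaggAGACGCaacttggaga
nhr-228: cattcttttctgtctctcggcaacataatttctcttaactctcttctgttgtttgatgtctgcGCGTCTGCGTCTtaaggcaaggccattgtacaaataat
nhr-119: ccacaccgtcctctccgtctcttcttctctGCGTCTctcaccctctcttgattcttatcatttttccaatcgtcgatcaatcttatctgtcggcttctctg
nhr-48: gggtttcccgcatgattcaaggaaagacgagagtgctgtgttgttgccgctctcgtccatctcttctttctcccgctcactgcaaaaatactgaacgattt
nhr-255: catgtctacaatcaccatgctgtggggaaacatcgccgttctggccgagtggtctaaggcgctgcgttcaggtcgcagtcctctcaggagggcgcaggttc

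The letters GCGTCT were picked after these sequences had been read, so their count at the receptor genes is a description. On either strand they stood within 50 bp of the summit at 6 of the 12 receptor peaks, and the longer GCGTCTC, which contains them, at 5. Across all 1841 peaks the shares were 17.7% and 13.1%. Around points 400 bp to the right of the same summits they were 1.68% and 0.706%, and around the starts of all 19973 protein-coding genes 2.27% and 1.00%. The letters were thus more frequent at peak summits of the whole list than beside them, and 6 of the 12 receptor peaks were among those that carried them. In nhr-228 they stand as 2 copies in direct succession.

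Other short sequences stood at 1 of the receptor peaks or none, counts too small to set against their shares elsewhere. TAATTA, a core that homeodomain proteins of this class bind, occurred at 0 of the 12 peaks and at 2.66% of all peaks, and TTAATTA, which contains it, at 0 and 1.36%. Around the starts of all protein-coding genes TAATTA occurred in 4.30% of windows of the same length. Its share was 4.94% around points 400 bp to the right of all summits and 6.67% at the 20742 pooled regions below the IDR list. The 2.66% at all peaks was below each of these. AGGTCA, a nuclear receptor half-site, stood at 0 of the 12 peaks and 3.04% of all peaks. GTTCGANNC, found in the internal promoter of tRNA genes, occurred at 0 and 4.51%. GAGAGAG, a short repeat, occurred at nhr-1 alone, against 12.9% of all peaks. Around points 400 bp to the right of all summits its share was 0.978%, and around the starts of all protein-coding genes 1.78%. Like GCGTCT, it was thus more frequent at summits of the whole list than beside them. All were searched on both strands, and a missing match says only that the letters are not in these windows.

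The 12 genes made up 4.48% of the 268 receptor genes (exact 95% interval 2.33% to 7.69%), where 6.82% of all protein-coding genes held a peak. The interval takes in the value of all genes, so a difference was not detectable with this number of genes. Genes are not replicates, and the intervals here cover counting error only. The conserved receptors held 1 peak among 12 genes (8.33%, interval 0.211% to 38.5%), and the expanded family held 11 among 256 genes (4.30%, interval 2.16% to 7.56%). With 12 conserved genes their interval is wide, and that of the expanded family lies inside it.

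Shares differed between chromosomes in the receptor genes and in all genes. On chromosome V, 6 of 167 receptor genes held a peak (3.59%, interval 1.33% to 7.66%), beside 3.82% of all genes of that chromosome. Off chromosome V, 6 of 101 did (5.94%, interval 2.21% to 12.5%), beside 7.82% of all genes there. Both intervals take in the value of all genes of the same chromosomes. On X the count was 4 of 23 (17.4%, interval 4.95% to 38.8%), beside 8.09% of all X genes, and the wide interval takes in that background. X held 4 of the 6 peaks off V. Without X, 2 of 78 receptor genes off V held a peak (2.56%, interval 0.312% to 8.96%), beside 7.76% of all genes there, so the share off V was then below that on V. Chromosome IV had a peak at 0 of its 32 receptor genes, which allows a share of up to 10.9%, where 5.76% of its genes held one.

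All 6 peaks on chromosome V fell in the third of the chromosome nearest its left end, a division made after the values were seen. There 6 of 78 receptor genes held a peak (7.69%, interval 2.88% to 16.0%), where 3.09% of all genes of that stretch did. Those were 48 of 1554 genes, the receptor genes included. The middle stretch had 0 of 41 and the right one 0 of 48, which allow shares of up to 8.60% and 7.40%. The values of all genes in those stretches were 5.62% and 2.56%, both under these upper limits. Because the division followed the peaks, no test was made of it.

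**Figure D1:**
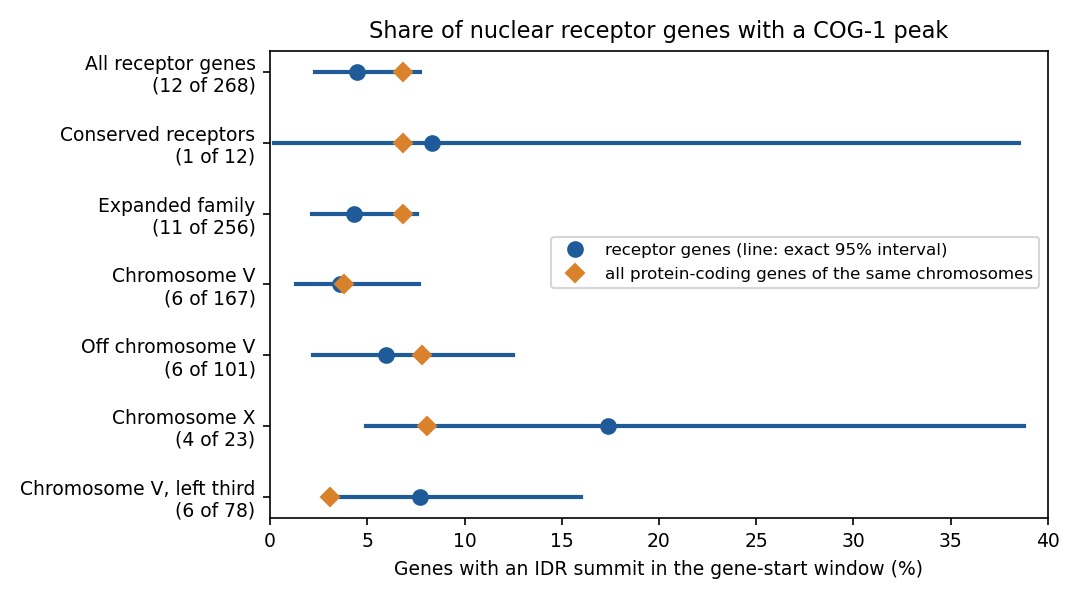
Share of receptor genes with an IDR peak in the gene-start window, in percent, with exact 95% intervals (circles and lines) beside all protein-coding genes of the same chromosomes (diamonds); labels give genes with a peak of genes in the group. Every interval drawn takes in its background value. The left stretch of chromosome V was marked out after the values were seen, so its interval (lower end 2.88%) is no test against the background of 3.09%. Background genes include the receptor genes themselves. On that stretch 6 of the 48 background genes with a peak are receptor genes, so the 2 shares are not independent.

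The strongest receptor peak was at nhr-1, a receptor gene of the expanded family on X. Its summit lay 357 bp upstream of the start and ranked 200 of 1841, with a pooled signal of 204. The signal was 62.0 in replicate 1 (rank 542) and 139 in replicate 2 (rank 115). The peak was thus among the stronger regions of both replicates, and stronger in replicate 2.

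Next on X came nhr-255 and nhr-48, whose starts are 34397 bp apart. The nhr-255 summit lay 544 bp upstream at rank 292, with a pooled signal of 176 and values of 72.5 and 108 in replicates 1 and 2. It falls inside a tRNA gene, WBGene00014626, and the 301 bp around it aligned to 3 other places over at least 100 bp at 90% identity or more. None of the other 11 peaks had such a copy, and reads at nhr-255 may be shared with those places. Peaks within 500 bp of a tRNA gene made up 7.71% of the IDR list and 3.57% of its peaks in gene-start windows.

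nhr-48, whose insect relative is Drosophila DHR96, was the only conserved receptor gene with a peak in its window. The summit lay 662 bp upstream, farther than at any other of the 12 genes. It ranked 390 with a pooled signal of 159, and had signals of 56.5 in replicate 1 (rank 682) and 107 in replicate 2 (rank 267). Both replicates placed it well within their strongest 1841 regions. In a window of 500 bp upstream to 250 bp downstream the gene would hold no peak.

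The last X gene, nhr-32, rested on replicate 2. Its summit lay 352 bp upstream at rank 1296, with a pooled signal of 93.3. Replicate 2 gave 83.1 (rank 527). Replicate 1 gave 24.2 (rank 5197), with a −log10 q of 0.324 and its own summit 198 bp away. It was the only one of the 12 peaks whose q did not pass 0.05 in replicate 1, and all 12 passed it in replicate 2.

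On chromosome V, nhr-59 and nhr-228 are neighbours, with starts 3494 bp apart and summits 3051 bp apart. The nhr-59 summit, 449 bp upstream, ranked 600 with a pooled signal of 135 and replicate signals of 44.3 and 89.9. It lay nearer to fbxa-137, an F-box gene whose start is 102 bp from it, so the peak cannot be given to either gene alone. The nhr-228 summit lay 6 bp inside the gene, in its first exon, and ranked 1512 with a pooled signal of 86.7 and replicate signals of 49.4 and 37.6. Replicate 1 put it at rank 920 and replicate 2 at rank 2607, so its place in the list of 1841 differed between replicates.

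These genes close a run of 15 receptor genes in 89.3 kb that starts at nhr-13, among 32 protein-coding genes. The run was marked out after the values were seen. Of the 15, nhr-59 and nhr-228 held an IDR peak, beside 3 of all 32 genes of the run, which include the 15 receptor genes. The third was fbxa-137, whose window holds the same peak as that of nhr-59. nhr-13 and nhr-56 held pooled regions with q under 0.05 that are not in the IDR list, so 4 of the 15 had a region with q under 0.05, beside 5 of the 32. The other 11 receptor genes of the run held neither.

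Elsewhere on V, nhr-47 had its summit 3 bp downstream of the start, in a non-coding part of the first exon, at rank 816 with a pooled signal of 117. The replicate signals were 45.3 and 70.7, and the peak also fell in the window of dnj-19, a DnaJ-type chaperone gene, 399 bp from its start. nhr-256 followed at rank 931, 117 bp upstream, with a pooled signal of 110 and replicate signals of 38.5 and 61.8. nhr-58, 53 bp upstream, ranked 977 with 107 pooled, and was the reverse in its replicates, with 59.4 in replicate 1 (rank 609) and 47.9 in replicate 2 (rank 1661). The nhr-142 summit, 499 bp upstream at rank 1242 with 95.5 pooled and replicate signals of 38.9 and 61.2, lay nearer to F44E7.9, 178 bp from that gene's start. All 3 receptor peaks shared with another gene's window were on V (3 of 12, 25.0%, beside 34.4% of all peaks in windows).

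Of 15 functionally studied genes of the expanded family, nhr-49 held a peak (1 of 15, 6.67%, interval 0.169% to 31.9%), a share close to the 6.82% of all genes. NHR-49 acts on fatty acid desaturation and oxidation together with Mediator subunit MDT-15. Its summit lay 379 bp upstream on chromosome I at rank 813, with a pooled signal of 117, and replicates 1 and 2 gave 53.5 (rank 761) and 58.0 (rank 1148). The ranks of the replicates were thus close to that of the pooled list. Its neighbour nhr-69, a conserved receptor gene whose start is 11853 bp from that of nhr-49, held no region, and this same peak was the IDR peak nearest to it. The weakest of the 12, nhr-119 on II, lay 391 bp upstream at rank 1655 with 82.9 pooled and replicate signals of 43.7 and 43.1.

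**Figure D2:**
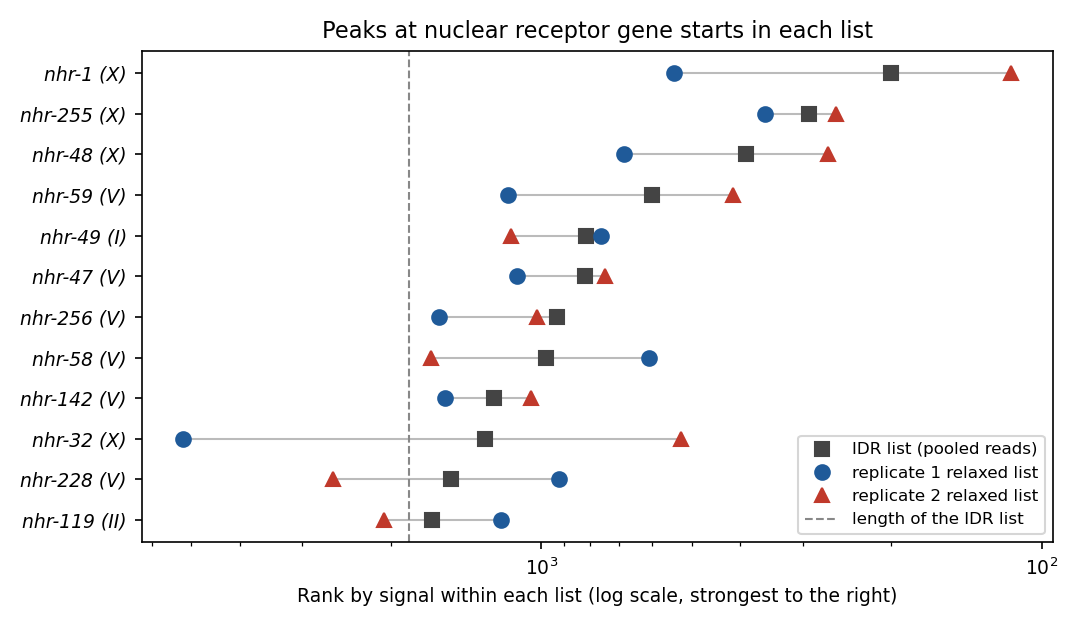
Rank of each of the 12 receptor peaks by signal in the IDR list, the replicate 1 list and the replicate 2 list (log axis, strongest to the right), with the chromosome after the gene name and a dashed line at rank 1841. Of the 12 peaks, 11 rank within 1841 in replicate 1 and 10 in replicate 2, and nhr-32 is the one beyond the line in replicate 1. The same counts over all IDR peaks are not given.

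Among the peaks of the IDR list the receptor peaks were of middling strength. Their median signal was 113, beside 111 for all 1036 peaks in gene-start windows, and 6 of the 12 were in the stronger 920. Those on V had a median of 109 and those elsewhere of 138. In 8 of the 12 the rank was nearer the top in replicate 2. The same count over all peaks is not given, so this is not read as a trait of the receptor peaks. Replicate 2 held 3522 regions with q under 0.05 in all, and replicate 1 held 2033. Base composition at the summits was the same in the median, 47.5% G and C for both the receptor peaks and all peaks.

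The positions of the receptor summits are described with a divide at 200 bp from the start, which was not planned. Of the 12, 8 lay 352 to 662 bp upstream and 4 lay within 200 bp of the start, with the farthest of these at 117 bp. Among the 8, the summits of nhr-59 and nhr-142 were nearer to another gene's start, and that of nhr-255 lay in a tRNA gene. The median was 368 bp upstream, beside 256 bp for all 1418 pairs of a peak and a gene window. Summits upstream of the start made up 10 of the 12 (83.3%) and 93.4% of all pairs. The 3 strongest all lay 357 bp or more upstream.

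**Figure D3:**
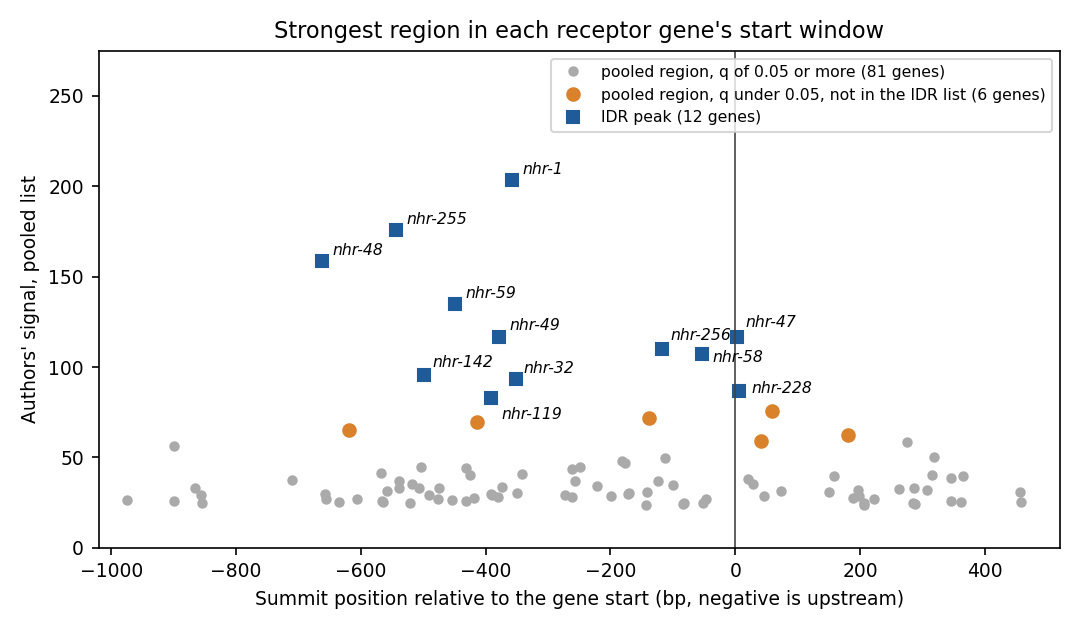
Position of the strongest region in each receptor gene's start window (bp from the start, negative upstream) against the authors' signal in the pooled list. Squares are the 12 genes with an IDR peak, orange circles the 6 genes with a pooled region of q under 0.05 outside the IDR list, and grey circles the 81 genes with weaker regions, which lie on both sides of the start.

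Relaxed pooled regions were about as common at receptor genes as at all protein-coding genes. A relaxed pooled region fell in the window of 99 of the 268 receptor genes (36.9%), beside 36.1% of all protein-coding genes. On V the shares were 35.3% for receptor genes and 27.9% for all genes. Pooled regions with q under 0.05 were at 18 receptor genes (6.72%), beside 10.4% of all genes. Of genes with a pooled region, 12.1% of the receptor genes and 18.9% of all genes had an IDR peak. Relaxed lists hold background by design. Of the 268 receptor genes, 48 had a region of both replicates and 80 had one of a single replicate. Over all 19973 protein-coding genes the counts were 4390 and 5085, so single-replicate regions were the more frequent kind there too.

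The 5 strongest pooled regions that missed the IDR list were at nhr-56, nhr-13, nhr-25, nhr-22 and nhr-104. The nhr-56 region ranked 1919 with a pooled signal of 75.7, just below the lowest signal of the IDR list, 77.7, and had 30.7 and 42.2 in the replicates. nhr-13, whose product works with NHR-49 on lipid genes, followed at rank 2093 (72.1 pooled, 36.0 and 37.6 in the replicates). nhr-25, the relative of Drosophila Ftz-F1, held a region 414 bp upstream at rank 2234, with 69.6 pooled and 26.9 and 35.9 in the replicates. In these 3 genes both replicates held a region, ranked outside their strongest 1841. nhr-22 and nhr-104 ranked 2496 and 2709 in the pooled list. Replicate 1 placed them at 1940 and 1726, and replicate 2 at 4322 and 4859.

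The other conserved receptors showed weak regions or none. nhr-64, a relative of HNF4, had a pooled region at rank 3018 (58.5). nhr-23, the relative of ROR, was at rank 7264 (38.4), nhr-6, the relative of the NR4A receptors, at rank 8094 (36.7), and nhr-41 at rank 13805 (29.4). Pooled regions were thus present at 6 of the 12 conserved genes, and at 93 of 256 genes (36.3%) of the expanded family. Of the conserved ones, those of nhr-48 and nhr-25 alone had q under 0.05. nhr-8, nhr-69, nhr-85, nhr-91, nhr-111 and nhr-239 held no pooled region in the window. For nhr-8 an IDR summit of rank 1776 lay 1098 bp upstream, just outside the limit, and nhr-280 of the expanded family was in the same place with a summit 1121 bp upstream at rank 1737. Inside the limit the farthest summits were those of nhr-48 and nhr-255, at 662 and 544 bp. Downstream, nhr-228 and nhr-47 were inside, at 6 and 3 bp, and nhr-19 and nhr-3 outside, at 1864 and 1942 bp.

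A further 6 receptor genes had an IDR summit inside the gene and outside the window, so that 18 of 268 (6.72%, interval 4.03% to 10.4%) had one in the gene or the window, beside 8.37% of all protein-coding genes. The strongest peak in any receptor gene was of this kind. It lay in an intron of nhr-3 on X, 1942 bp from the start, at rank 65 with a pooled signal of 278, rank 240 in replicate 1 and rank 27 in replicate 2. In nhr-17, also on X, the summit at rank 208 (201 pooled) lay 2623 bp in, within the tRNA gene WBGene00009555. nhr-19 on II had an intronic summit at rank 567 (138 pooled). On IV, summits lay 6896 bp into nhr-66 (rank 618), 8355 bp into nhr-34 (rank 1525) and 4554 bp into nhr-46 (rank 1272). Those of nhr-66 and nhr-34 lay 129 and 236 bp upstream of the start of a shorter annotated transcript of the same gene, so 14 receptor genes (5.22%) held a peak when any transcript start was counted, beside 7.31% of all genes. NHR-66 is known as a partner of NHR-49 in the control of sphingolipid genes. None of the 6 genes was on V. The share of all V genes with such a summit is not given, so this is no result about the receptor genes there.

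In the median, receptor gene starts lay farther from IDR peaks than the starts of all genes. The median distance to the nearest summit was 45230 bp for receptor genes and 21836 bp for all protein-coding genes. On V it was 55899 bp against 37694 bp for all genes there, and off V 28024 bp against 18461 bp. Of the receptor genes, 31 (11.6%) lay within 5000 bp of a summit, beside 18.2% of all genes, and 121 (45.1%) lay beyond 50000 bp, beside 24.6%. On V, 5.99% of receptor genes and 11.0% of all genes lay within 5000 bp, while off V the shares were 20.8% and 20.6%. On chromosome IV the median of the receptor genes was the smaller one, 21432 bp beside 24459 bp. The share within 5000 bp was thus lower on V and close to that of all genes over the other chromosomes pooled. Without X, the shares off V within 5000 bp were 16.7% of receptor genes and 20.2% of all genes. By chromosome, the receptor share was below that of all genes on I and IV, and above it on II, III and X. A lower share was therefore not particular to V. The greater median was seen on V and over the other chromosomes pooled but not on IV. Neighbouring receptor genes share the same nearest peak, so these distances are not independent, and they are given without a test. The median space to the next gene upstream was 1575 bp at receptor genes and 937 bp at all genes. It was 1032 bp beside 946 bp on V, 3319 bp beside 931 bp off V, and 5033 bp beside 2123 bp on X.

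**Figure D4:**
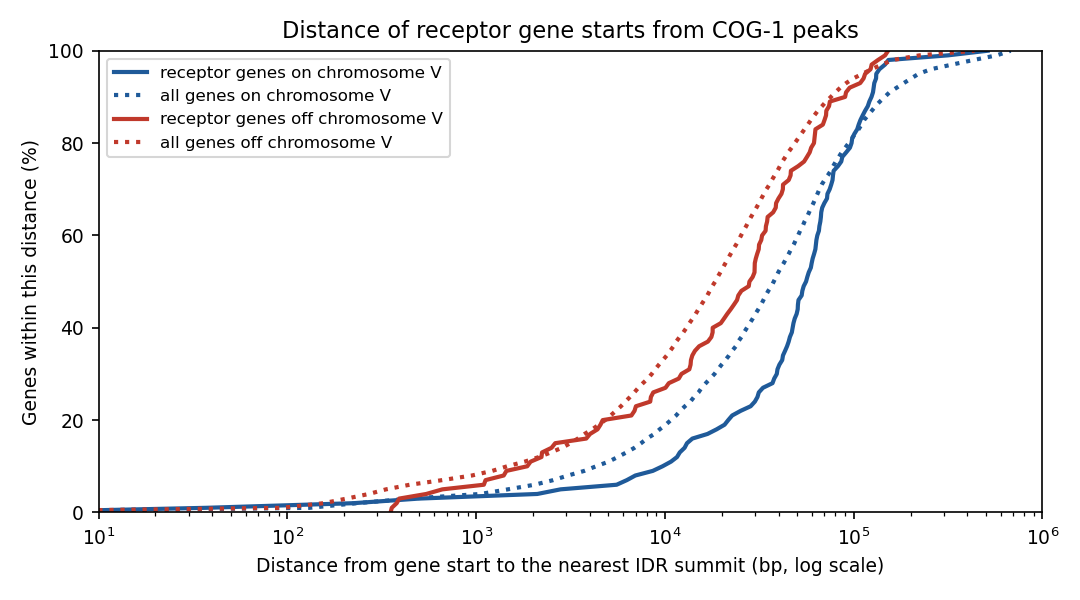
Percent of genes whose start lies within a given distance (bp, log axis) of the nearest IDR summit, for receptor genes (solid) and all protein-coding genes (dotted) on chromosome V (blue) and off it (red). Receptor genes run to the right of all genes over most of the range, with medians of 55899 bp on V and 28024 bp off V.

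Receptor genes often lie in clusters. Of the 268, 172 (64.2%) had the start of another receptor gene within 20000 bp, and on V 128 of 167 (76.6%) did. Peaks were held by 4 of these 172 genes (2.33%, interval 0.637% to 5.85%) and by 8 of the 96 that stood alone (8.33%, interval 3.67% to 15.8%), where 6.82% of all genes held one. On V the counts were 3 of 128 (2.34%, interval 0.486% to 6.70%) and 3 of 39 (7.69%, interval 1.62% to 20.9%), where 3.82% of all genes did. Off V they were 1 of 44 (2.27%, interval 0.0575% to 12.0%) and 5 of 57 (8.77%, interval 2.91% to 19.3%). There 7.82% of all genes held a peak. In each case the 2 intervals overlap. That of the 172 genes ends below the 6.82% of all genes, and the other intervals take in their background. However, 128 of the 172 are on V, where the 3.82% of all genes lies inside that interval. The 6.82% is not matched by chromosome, so no lower share of clustered genes is read from it. Clustering and chromosome move together here, and their parts in the share of genes with a peak were not tested apart.

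Genes that work with the receptors were looked at in the same way. Among 4 coregulator genes, cbp-1 and din-1 held peaks, a share whose interval runs from 6.76% to 93.2% beside 6.82% of all genes. cbp-1, which encodes the CBP/p300 acetyltransferase, had a summit 866 bp upstream at rank 47 with a pooled signal of 300.0, and ranked 59 and 56 in the replicates. din-1, which encodes a corepressor of the receptor DAF-12, had summits 647 and 847 bp upstream at ranks 196 and 831, with pooled signals of 205 and 116. The cbp-1 peak was stronger than any of the 12 receptor peaks and that of din-1 was close to nhr-1, while gei-8 and mdt-15 had none. Of 8 genes that make or carry sterol ligands, among them daf-9 and daf-36, 0 held an IDR peak, which allows a share of up to 36.9%. The 5 lipid and fatty acid target genes fat-5, fat-6, fat-7, acs-2 and acdh-1 had 0, as did the 5 receptor genes with other names, daf-12, fax-1, unc-55, sex-1 and odr-7, each 0 allowing up to 52.2%. For sex-1 the nearest IDR summit was 910 bp from the start, on the downstream side, and for daf-12 it was 1680 bp away.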

How the data were processed

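Peak lists of COG-1-GFP ChIP-seq from 2 biological replicates of mid-stage embryos were analysed. Per the file headers, the authors called relaxed lists of peaks and background on each replicate and on the pooled reads with a control alignment, and made the IDR list from these. Which caller and IDR threshold were used is not given in the sources used here. All deposited lists in ce11 hold a signal per region, the −log10 of a q-value and a summit. Read depth is unknown, and the authors' signal was used only to rank and describe regions within a list. Gene starts came from Ensembl release 115 (WBcel235), and sequences from the RefSeq genome of the same build. Window calls were tested on simulated summits. Counts were made in Python 3.11.15 with pandas 2.3.3, exact Clopper-Pearson intervals in scipy 1.17.1, and copies were searched with blastn 2.17.0. With 1 group and genes as the unit, no p-value was computed. The conserved receptors and the other gene lists were written from background knowledge. The members and lists were chosen with earlier results of these data known. Genes named in the text are those with an IDR peak, the conserved receptors, the 5 strongest pooled regions outside the IDR list, the genes nearest each window edge, genes sharing a peak and listed genes with a peak. Genes named beyond these, the stretches of chromosome V and the letters GCGTCT were chosen after values were seen. The divide at 200 bp from the start was not planned.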

Additional observations from a re-analysis of the deposited data

How the results depend on the processing

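The count of receptor genes with an IDR peak was recomputed under 10 alternatives. In each, the share of receptor genes was below that of all genes and the share on chromosome V below that off it, an order that turns without X (2.56% off V and X, 3.59% on V). The interval of each of these shares as reported takes in the share of all genes. Of 72 values, 9 moved by over 1.5 times for a count or outside the interval of a share. When a peak counted only for the closest gene start, at any distance, 21 receptor genes held one, which is 7.84% of them (8.16% of all genes), 7.81% of the expanded family and 15.8% of those off V. With the window kept as well, an alternative added after seeing the data, 10 did (3.73%). With peaks ranked 920 or better, 6 did, which is 2.24% of receptor genes, 1.95% of the expanded family and 1.20% of those on V. A window of 500 bp upstream to 250 bp downstream left 0% of the conserved receptors. Their interval is wide, so other values within it differ by over 1.5 times: 16.7% with 2000 bp upstream, with any base of a peak or with pooled regions of q under 0.05, and 14.3% with nhr-14 and nhr-49 added to the list. Off V the share was 9.90% with 2000 bp upstream and with pooled regions of q under 0.05. The causes were not tested. With the 1841 strongest regions of a single replicate in place of the IDR list, the count was 10 without replicate 1 (nhr-119 and nhr-228 lost) and 12 without replicate 2 (nhr-32 lost, nhr-104 gained). The letters GCGTCT, an addition made after seeing the data, stood at 58.3% of the receptor peaks within 100 bp of the summit. No paired analysis was possible because only 1 group was measured. Few genes per group and an unknown read depth limit these shares.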

Other observations

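The letters GCGTCT, seen at 6 of the 12 receptor peaks, stood within 50 bp of the summit at 15.3% of all 1036 IDR peaks in gene-start windows and at 3.82% of the 20742 pooled regions below the IDR list. They stood at 0 of the 12 points 400 bp to the right of the receptor summits, where the share over all peaks was 1.68%. At so low a share 12 points say little. The letters were picked by reading the receptor summits, so the 0 is no control for the 6.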
